A study of Homo sapiens with 16 samples.

Results

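How the transcriptional response to glutamine withdrawal differs between DLD1 and HCT116 cells was measured on all 16 of the 16 arrays of the series. For each gene the change without glutamine, log2 intensity in -Gln minus log2 intensity in +Gln, was averaged over the PIK3CA Mut and PIK3CA WT derivatives of a line, and the HCT116 average was taken from the DLD1 average. A positive difference means a more positive change in DLD1. DLD1 and HCT116 are established human colorectal carcinoma lines. PIK3CA encodes the catalytic p110-alpha subunit of phosphoinositide 3-kinase, and each line was used as a pair of derivatives: Mut cells had lost the normal allele by knockout and kept the mutant one, and WT cells had lost the mutant allele and kept the normal one. The 8 groups were therefore DLD1 Mut -Gln, DLD1 Mut +Gln, DLD1 WT -Gln, DLD1 WT +Gln, HCT116 Mut -Gln, HCT116 Mut +Gln, HCT116 WT -Gln and HCT116 WT +Gln, each with 2 arrays labelled as biological replicates, after 24 h in DMEM with 10% dialyzed fetal bovine serum. Each genotype of each line is a single engineered derivative, so a difference between the lines or between genotypes cannot be told apart from a property of those derivatives.

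Glutamine is the most abundant amino acid in plasma and culture medium and supplies nitrogen to asparagine, nucleotides and hexosamines and carbon to the citric acid cycle. When amino acids run short, the kinase GCN2 senses uncharged transfer RNA and phosphorylates eIF2-alpha, which favours translation of the transcription factor ATF4. ATF4 and its partners of the C/EBP family then induce asparagine synthetase, serine synthesis enzymes, amino acid transporters and aminoacyl-tRNA synthetases. The lines also differ by background: DLD1 carries a truncated APC, while HCT116 carries mutant beta-catenin.

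The median intensity of an array was 3.57 to 3.70, with an upper quartile of 19.9 to 22.7. Across genes, the arrays of a pair correlated at r = 0.989 to 0.992. Nothing in the labels says which replicates share a culture, so p-values measure the spread between these arrays, and the number of arrays limits the precision. Of 10 markers of colon epithelium all 10 lay above background in DLD1 with glutamine, against 8 in HCT116, where the actin-bundling protein VIL1 and the cadherin CDH17 did not. Of the fibroblast, leukocyte and endothelial markers with a probe set, 3 of 8, 3 of 9 and 3 of 9 lay above background in DLD1, against 3, 1 and 3 in HCT116. Their summed intensity with glutamine ran from 34.6 to 41.5 in DLD1 and 38.6 to 39.8 in HCT116 for fibroblast, from 29.0 to 43.3 in DLD1 and 24.4 to 27.3 in HCT116 for leukocyte, and from 51.0 to 81.0 in DLD1 and 60.4 to 86.8 in HCT116 for endothelial markers. None of the 8 of those markers that were tested was called in the line difference by limma. In total RNA from whole cultures a lower level in every cell and fewer cells with the RNA cannot be told apart.

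Of 15676 tested genes 2973, or 19%, responded differently in the lines (limma moderated test, Benjamini-Hochberg adjusted p under 0.05, termed called). The change was more positive in DLD1 for 1573 genes (10%) and more negative in DLD1 for 1400 (8.93%). The median size of a called difference was 0.61 on the log2 scale, and 508 called differences were at least 2-fold, 204 more positive and 304 more negative in DLD1. Within the lines 6406 genes (40.9%) changed in DLD1 and 5744 (36.6%) in HCT116, of which 1794 rose in both, 1741 fell in both and 250 were called in opposite directions. Across the tested genes the DLD1 and HCT116 changes correlated at r = 0.57, a description over genes that are not independent.

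**Figure D1:**
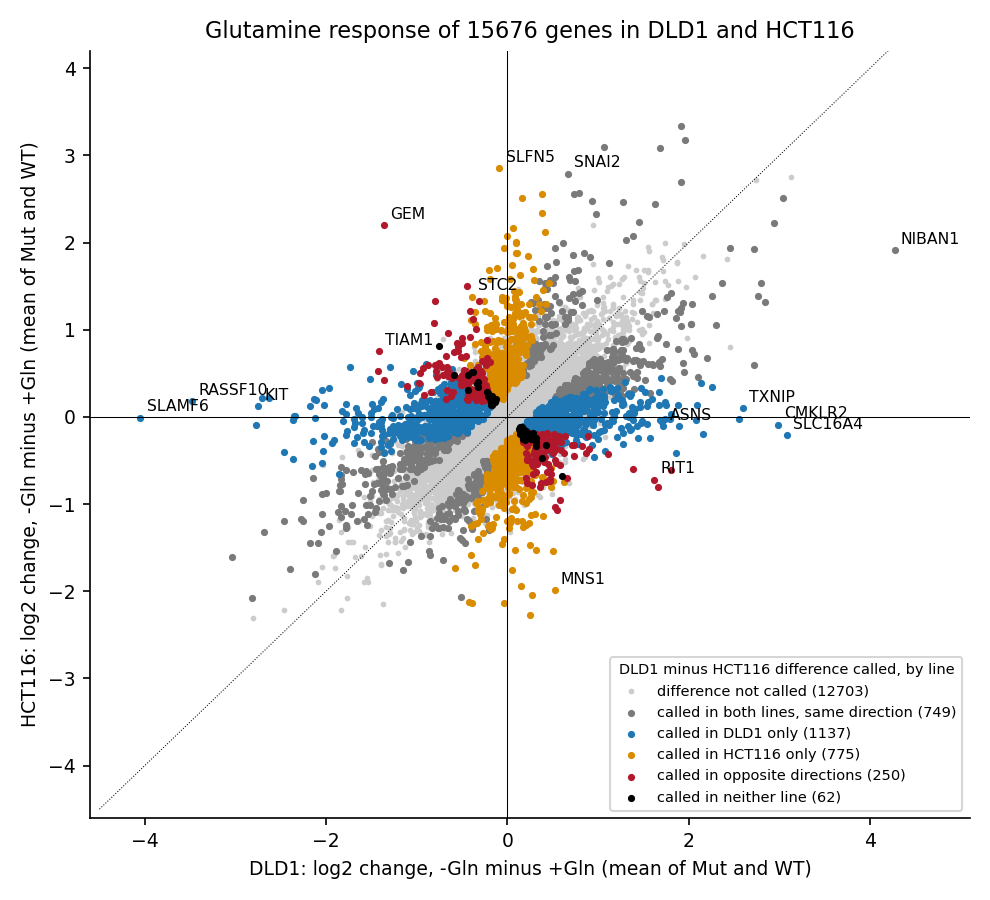
Change of each of 15676 tested genes without glutamine (log2, -Gln minus +Gln, mean of Mut and WT) in DLD1 on the x axis and HCT116 on the y axis, coloured by how a called difference arose. The 1137 genes called in DLD1 only lie along the horizontal axis and the 775 called in HCT116 only along the vertical one; the 250 called in opposite directions fill the other quadrants.

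Most called differences came from a response detected in a single line. The change passed the test in DLD1 alone for 1137 of the 2973 genes (594 rose and 543 fell there) and in HCT116 alone for 775 (376 rose and 399 fell). Another 749 changed in the same direction in both lines, with the larger change in DLD1 for 509 and in HCT116 for 240. The remaining genes were the 250 called in opposite directions, 129 of which rose in DLD1 and fell in HCT116, and 62 whose change passed in neither line.

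Among the gene lists the amino acid response had the largest share of tested members called in 1 direction. Of 41 tested ATF4 targets (44 listed), 28 changed more positively in DLD1 and 2 more negatively, against 10% and 8.93% of all tested genes. The median difference was 0.58 on the log2 scale, with a median change of 0.98 in DLD1 and 0.39 in HCT116, against a median difference of -0.0008 over all tested genes. In DLD1 35 members rose and 3 fell, against 20.9% and 19.9% of all tested genes. In HCT116 22 rose and 5 fell, against 18.4% and 18.2%. By derivative, 16.8% of all tested genes rose and 16.8% fell in DLD1 Mut (33.6% in all), 14% and 13% in DLD1 WT (27%), 16.4% and 16.5% in HCT116 Mut (32.9%), and 10.3% and 10.1% in HCT116 WT (20.3%). The median change of the list was 0.70 in DLD1 Mut, 1.36 in DLD1 WT, 0.09 in HCT116 Mut and 0.69 in HCT116 WT.

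ASNS, which makes asparagine with glutamine as the nitrogen donor, is the standard readout of the response. Its intensity was 296 and 294 without glutamine, against 139.6 and 125 with it, in DLD1 Mut, and 336 and 368 without, against 69.0 and 75.7 with, in DLD1 WT. In HCT116 Mut it was 186 and 183 without glutamine, against 287 and 317 with it, and in HCT116 WT 277 and 240.4 without, against 188 and 179.9 with. The -Gln and +Gln arrays overlapped in none of the derivatives: ASNS rose in DLD1 Mut (1.16), DLD1 WT (2.28) and HCT116 WT (0.49) and fell in HCT116 Mut (-0.71). The line difference was 1.83 ± 0.11 (SE), or 3.56-fold, with a limma adjusted p of 9.84e-06, and it was 1.87 ± 0.15 in Mut and 1.79 ± 0.15 in WT. With glutamine ASNS lay 1.27 log2 units lower in DLD1 than in HCT116 (-1.27), and without glutamine 0.56 higher (0.56).

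The promoter of ASNS is shown because its C/EBP-ATF element is a textbook case, and those of CHAC1 and NARS1 because they carry the same letters in a stress gene and a synthetase whose line difference was called. CHAC1 degrades glutathione. NARS1 charges the asparaginyl transfer RNA. The windows are RefSeq sequences of GRCh38.p14, 250 bases before to 50 bases after the start, given 5′ to 3′ on the strand of the gene, and the capitals mark TGATGNAA or its reverse complement. ASNS lies on the minus strand at chr7:97872359-97872658, CHAC1 on the plus strand at chr15:40953221-40953520 and NARS1 on the minus strand at chr18:57621787-57622086.
ASNS: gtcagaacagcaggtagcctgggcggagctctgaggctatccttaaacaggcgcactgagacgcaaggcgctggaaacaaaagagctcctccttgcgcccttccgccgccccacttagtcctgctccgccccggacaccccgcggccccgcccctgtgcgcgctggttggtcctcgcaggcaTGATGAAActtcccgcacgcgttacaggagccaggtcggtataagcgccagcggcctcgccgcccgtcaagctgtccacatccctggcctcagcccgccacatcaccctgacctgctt
CHAC1: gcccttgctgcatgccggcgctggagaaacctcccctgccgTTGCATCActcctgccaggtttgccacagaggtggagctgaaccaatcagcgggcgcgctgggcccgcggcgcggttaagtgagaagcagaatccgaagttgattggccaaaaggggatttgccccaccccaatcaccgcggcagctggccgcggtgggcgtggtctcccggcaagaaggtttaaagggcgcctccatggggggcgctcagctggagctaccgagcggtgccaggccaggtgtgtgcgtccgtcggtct
NARS1: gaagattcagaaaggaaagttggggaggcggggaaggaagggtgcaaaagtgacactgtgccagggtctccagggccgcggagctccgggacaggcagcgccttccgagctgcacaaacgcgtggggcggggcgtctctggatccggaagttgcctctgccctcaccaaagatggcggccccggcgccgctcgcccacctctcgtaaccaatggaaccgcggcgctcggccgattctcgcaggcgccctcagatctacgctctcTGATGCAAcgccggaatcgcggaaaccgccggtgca
The letters TGATGNAA, searched on both strands, occurred in 1003 of 27305 promoters (3.67%) and in 227 of the 11735 promoters of tested genes (1.93%). They occurred in 7 of the 36 amino acid response genes with a promoter sequence (19.44%) and in 6 of the 16 synthetases with one (37.5%), CARS1 counted in both. Of those 7, ATF3, CHAC1, SLC7A1, SLC3A2, ASNS and CARS1 were called more positive in DLD1 and FGF21 was not called. The call of ATF3 was lost without any of 12 arrays. Of the 6 synthetases, CARS1, IARS1, MARS1, NARS1 and TARS1 were called more positive in DLD1 and AARS1 was not (0.07 ± 0.08). In the whole lists 28 of 41 tested amino acid response genes and 10 of 19 tested synthetases were called more positive in DLD1. Whether members with the letters differed from members without them was not tested. A match describes the letters and is not evidence of binding.

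PHGDH, PSAT1 and PSPH, the enzymes that make serine from a glycolytic intermediate, rose in DLD1 (1.11, 0.58 and 0.36) and fell in HCT116 (-0.43, -0.55 and -0.23) when averaged over genotypes. PHGDH, which takes the first step, had 522 and 542 without glutamine, against 391 and 385 with it, in DLD1 Mut, and 565 and 594 without, against 187 and 157 with, in DLD1 WT. It had 191 and 195 without glutamine, against 462 and 453 with it, in HCT116 Mut, and 359 and 348 without, against 268 and 277 with, in HCT116 WT. HCT116 Mut was the derivative in which PHGDH fell (-1.24), while it rose in the other three, and the line difference was 1.54 ± 0.09 (limma adjusted p = 1.4e-05).
PSAT1, the transaminase of the next step, fell in HCT116 Mut as well. Its intensity was 2285 and 2334 without glutamine, against 2187 and 2352 with it, in DLD1 Mut, where the arrays overlapped, and 2963 and 2819 without, against 1272 and 1370.0 with, in DLD1 WT. In HCT116 Mut it was 1102 and 1088 without glutamine, against 2751 and 2527 with it, and in HCT116 WT 1888 and 1946 without, against 1750.0 and 1657 with. Its change was not called in DLD1 Mut or HCT116 WT, and the line difference was 1.13 ± 0.09 (limma adjusted p = 5.15e-05). PSPH, the phosphatase of the last step, fell in HCT116 Mut (-0.76), rose in DLD1 WT (0.93) and was not called in DLD1 Mut (-0.20) or HCT116 WT (0.30).
Of 17 tested serine, glycine and folate genes 9 changed more positively in DLD1 and 0 more negatively, against 10% and 8.93% of all tested genes. The median difference was 0.38. Among the 9 were the mitochondrial enzymes SHMT2 (0.82 ± 0.08) and MTHFD2 (0.67 ± 0.09), which move the serine carbon into folate. The cytosolic enzymes SHMT1 (0.01 ± 0.12) and MTHFD1 (-0.01 ± 0.11) fell in both lines.

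For several regulators of the response the difference between the lines was small or not called. ATF4 itself rose by 0.96 in DLD1 and 0.60 in HCT116 (difference 0.36 ± 0.10, limma adjusted p = 0.0307, a call lost without any of 10 arrays). The stress transcription factor DDIT3 rose by 3.13 in DLD1 and 2.75 in HCT116, a difference of 0.38 ± 0.33 that was not called. With that error the size of the DDIT3 difference stays uncertain. TRIB3, a pseudokinase that restrains ATF4, rose by 1.46 in DLD1 and 1.56 in HCT116 (difference -0.10 ± 0.10, not called), and CEBPG, a C/EBP partner of ATF4, by 0.91 and 0.99 in DLD1 and HCT116 (-0.08 ± 0.12, not called). The transcription factor ATF3 had a larger difference (0.87), a call lost without any of 12 arrays. Whether regulators and enzymes differed from each other was not tested.

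The largest differences in the list were those of NIBAN1 and ASNS on the positive side and CLGN and STC2 on the negative side. NIBAN1, a stress-induced regulator of translation, had 167 and 184 without glutamine, against 11.1 and 16.96 with it, in DLD1 Mut, and 354 and 332 without, against 9.26 and 15.1 with, in DLD1 WT. It had 320.3 and 326 without glutamine, against 137 and 157 with it, in HCT116 Mut, and 364 and 379 without, against 54.4 and 61.8 with, in HCT116 WT. All 4 derivatives thus rose with no overlap of arrays, and the line difference of 2.36 ± 0.23 (5.12-fold, limma adjusted p = 0.000147) went with a level with glutamine 2.85 log2 units lower in DLD1 (-2.85). DDIT4, an inhibitor of mTORC1, likewise rose in both lines, by 2.84 in DLD1 and 1.32 in HCT116 (difference 1.53 ± 0.13).
STC2, a secreted glycoprotein of the stress response, ran the other way. In DLD1 its intensity stayed near background, between 2.83 and 9.31 on all 8 arrays. In HCT116 it was 555 and 576 without glutamine, against 254 and 279.9 with it, in Mut, and 694 and 665 without, against 202 and 223 with, in WT. The line difference was -1.77 ± 0.39 (limma adjusted p = 0.0101). The testis-enriched chaperone CLGN rose by 0.79 in DLD1 and 2.57 in HCT116 when averaged over genotypes (difference -1.79 ± 0.39). In DLD1 Mut its arrays overlapped, with 7.019 and 4.182 without glutamine, against 5.204 and 4.809 with it. These lay near 4.53, the background threshold in DLD1 with glutamine. In DLD1 WT CLGN had 39.02 and 45.21 without, against 10.12 and 23.09 with.

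Aminoacyl-tRNA synthetases load amino acids onto transfer RNA, and several are ATF4 targets. Of 19 tested cytosolic enzymes 10 changed more positively in DLD1 and 1 more negatively, against 10% and 8.93% of all tested genes. The median change was 0.50 in DLD1 and -0.22 in HCT116. By derivative it was 0.37 in DLD1 Mut, 0.58 in DLD1 WT, -0.36 in HCT116 Mut and 0.09 in HCT116 WT. In DLD1 12 rose and 5 fell, against 20.9% and 19.9% of all tested genes. In HCT116, averaged over genotypes, 5 rose and 10 fell, against 18.4% and 18.2%. NARS1 had 2382 and 2352 without glutamine, against 1609 and 1735 with it, in DLD1 Mut, and 2262 and 2219 without, against 1431 and 1442 with, in DLD1 WT. It had 1035 and 1041 without glutamine, against 1643 and 1613 with it, in HCT116 Mut, and in HCT116 WT 1480.0 and 1539 without, against 1446 and 1388 with. It was therefore higher without glutamine on every DLD1 array, lower on both HCT116 Mut arrays, and not called in HCT116 WT (difference 0.85 ± 0.08, limma adjusted p = 0.000116). EPRS1 (0.80) and WARS1 (0.85), for glutamate with proline and for tryptophan, were also called in opposite directions when averaged over genotypes. In HCT116 Mut WARS1 had 67.42 and 65.95 without glutamine, against 100.3 and 105.5 with it. In HCT116 WT it had 81.14 and 91.14 without, against 70.65 and 79.9 with. EPRS1 had 991 and 967.6 without, against 1336 and 1373 with, in HCT116 Mut. In HCT116 WT EPRS1 had 1087 and 1157 without, against 1219 and 1158 with. SARS1, for serine, rose in both lines with a difference of 0.86. VARS1, for valine, was the member that changed more negatively in DLD1, where it fell by 0.66, against a fall by 0.22 in HCT116. The synthetase for alanine, AARS1, rose in both lines, and those for lysine (KARS1) and phenylalanine (FARSA) fell in both, with differences that were not called.

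**Figure D2:**
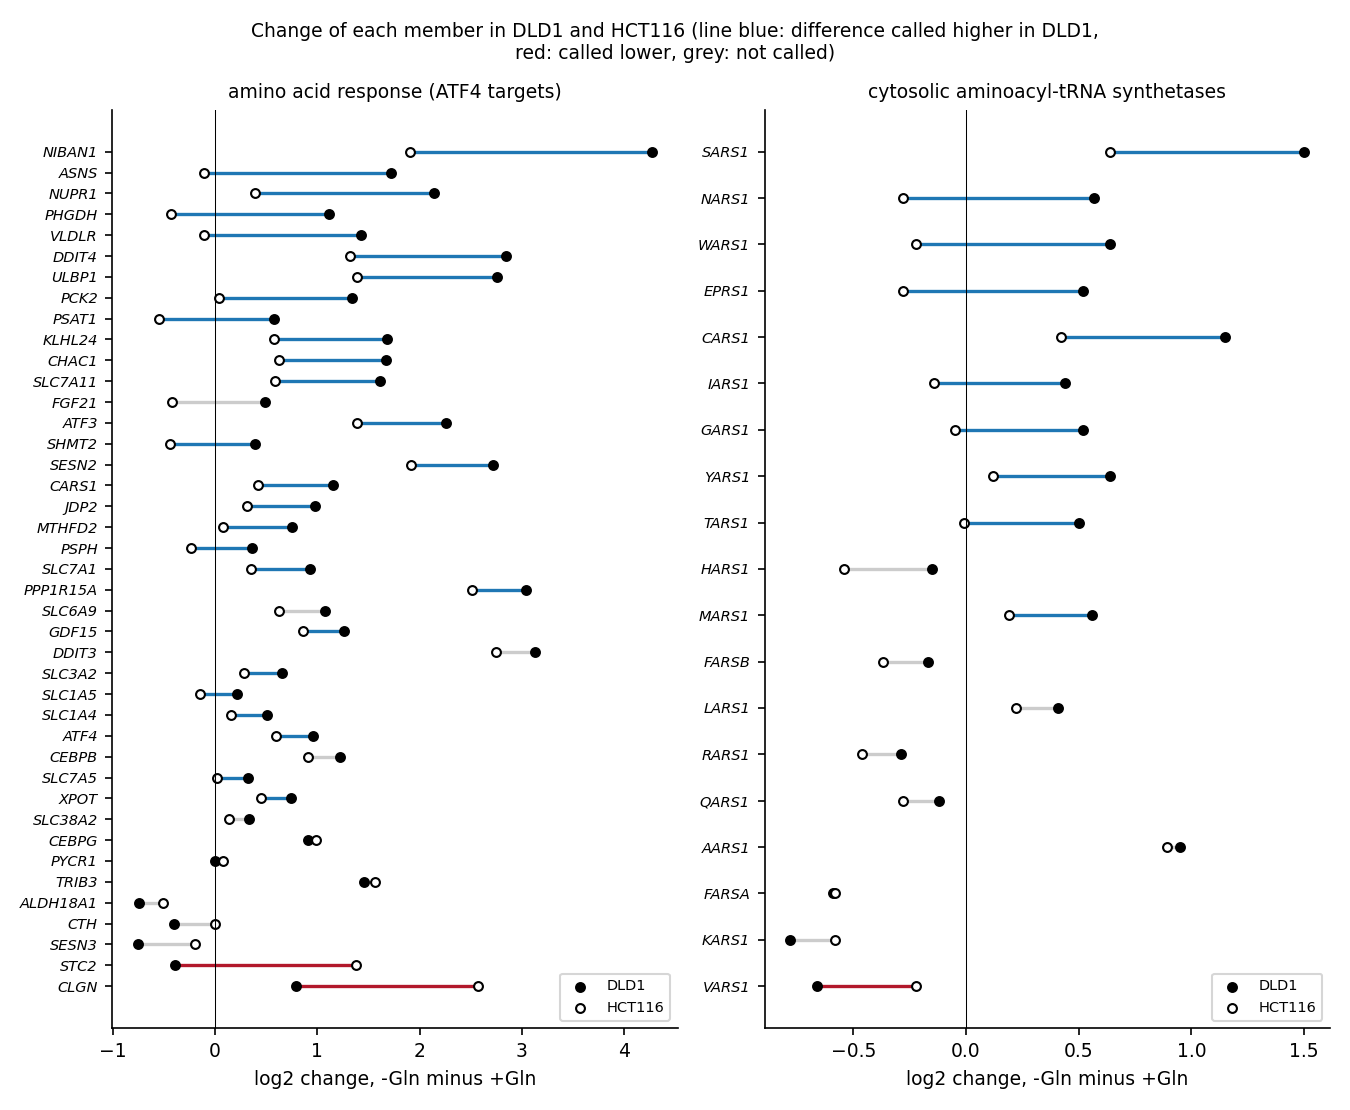
Change of each tested member of the amino acid response list (left) and of the cytosolic aminoacyl-tRNA synthetases (right), in log2 units on the x axis, with filled points for DLD1 and open points for HCT116. A blue bar joins points whose difference was called more positive in DLD1, red more negative, grey not called; among synthetases 10 bars are blue and 1 is red.

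Amino acid transporters were split. Of 25 tested, 10 changed more positively in DLD1 and 4 more negatively, against 10% and 8.93% of all genes. SLC7A11, the cystine-glutamate exchanger, rose by 1.61 in DLD1 and 0.59 in HCT116 (difference 1.02 ± 0.11), and SLC38A5, a glutamine and asparagine carrier near background in DLD1 with glutamine, rose by 0.55 in DLD1 and fell by 1.07 in HCT116 (difference 1.62). The taurine carrier SLC6A6 fell by 1.62 in DLD1 and 0.61 in HCT116, and the neutral amino acid carrier SLC7A8 by 1.63 in DLD1 and 0.43 in HCT116. Among 26 tested genes of glutamine and glutamate metabolism 4 changed more positively and 4 more negatively in DLD1, 15.4% each way, near the 10% and 8.93% of all tested genes. Glutamine synthetase, GLUL, was not among them (0.49 ± 0.21, limma adjusted p = 0.138).

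Among genes above background in both lines with glutamine, TXNIP, an arrestin that limits glucose uptake, had the largest positive difference. Its intensity in DLD1 was 397 and 467 without glutamine, against 97.3 and 137 with it, in Mut, and 769 and 751 without, against 69.3 and 87.0 with, in WT. In HCT116 it was 6.15 and 7.04 without glutamine, against 5.52 and 5.94 with it, in Mut, and 8.62 and 4.76 without, against 6.25 and 6.54 with, in WT. The DLD1 arrays did not overlap, the HCT116 WT arrays did, and the HCT116 level stayed near 4.71, the background threshold in that line with glutamine (difference 2.49 ± 0.25, limma adjusted p = 0.000174). Other large positive differences were those of CYP1A1, a xenobiotic monooxygenase (2.47), ARHGAP28, a RhoA GTPase-activating protein (2.41), RIT1, a RAS-related GTPase (2.34), TMEM139 (2.27) and the homeobox factor MKX (1.98).

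GEM, a small GTPase of the RGK family, had the largest negative difference of those genes and the largest opposed pair of changes. It had 15.7 and 11.5 without glutamine, against 28.0 and 30.3 with it, in DLD1 Mut, and 13.4 and 12 without, against 40.5 and 37.0 with, in DLD1 WT. It had 88.2 and 90.4 without glutamine, against 10.7 and 12.1 with it, in HCT116 Mut, and 83.7 and 96.0 without, against 31.9 and 34.3 with, in HCT116 WT. Every -Gln array was below the +Gln arrays of its derivative in DLD1 and above them in HCT116, and the difference was -3.57 ± 0.14 (11.8-fold, limma adjusted p = 2.02e-06).
TIAM1, an activator of the GTPase RAC1, followed the same pattern. It had 11.9 and 14.6 without glutamine, against 39.9 and 41.8 with it, in DLD1 Mut, and 16.1 and 14.9 without, against 38.1 and 33.7 with, in DLD1 WT. In HCT116 Mut it had 172 and 183 without, against 115 and 133 with, and in HCT116 WT 247 and 260.0 without, against 129.6 and 128 with. Again no arrays overlapped within a derivative (difference -2.17 ± 0.12, limma adjusted p = 8.17e-06). The ETS factor ELK3 fell by 0.81 in DLD1 and rose by 1.08 in HCT116, and TMEM158 fell by 0.80 in DLD1 and rose by 1.33 in HCT116. RIT1, CYP1A1, ARHGAP28 and MKX were opposed the other way when averaged over genotypes, rising in DLD1 and falling in HCT116. ARHGAP28 lay between 3.336 and 7.5 on the 8 HCT116 arrays, near 4.71, the background threshold in that line with glutamine. MKX had 93.22 and 103.7 without glutamine, against 220.5 and 214.4 with it, in HCT116 Mut. In HCT116 WT it had 194.8 and 202.4 without, against 202.6 and 210.9 with.
SLFN5, a member of the Schlafen family, rose in HCT116, and its DLD1 level lay near 4.53, the background threshold in that line with glutamine. It had 939.5 and 926 without glutamine, against 122 and 166 with it, in HCT116 Mut, and 973 and 1073 without, against 138 and 120.2 with, in HCT116 WT, while all 8 DLD1 arrays lay between 4.18 and 7.73. Its difference was -2.94 (7.69-fold). H1-5, a linker histone with near-identical relatives whose signal on the array is uncertain, differed by -2.68. In DLD1 Mut it had 120.7 and 133.7 without glutamine, against 1230 and 1120 with it. In DLD1 WT it had 215.4 and 182.5 without, against 1046 and 957.9 with. Its 8 HCT116 arrays lay between 3.775 and 8.562, near 4.71, the background threshold in that line with glutamine.

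**Figure D3:**
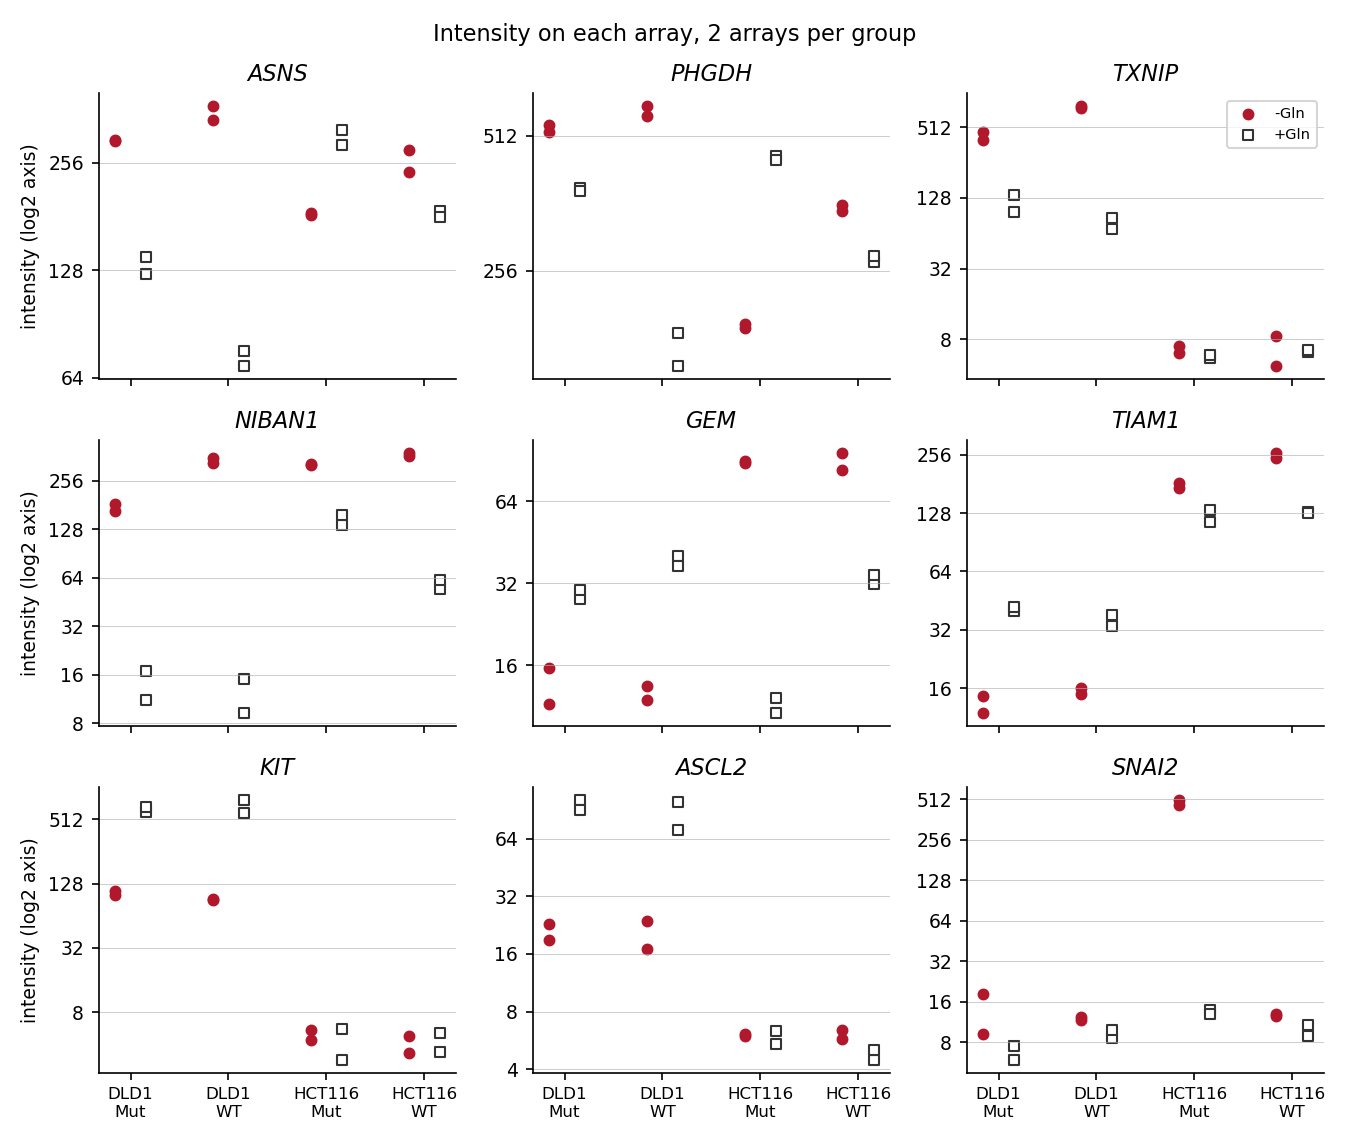
Intensity of 9 genes on each of the 16 arrays, on a log2 axis, with filled circles for -Gln and open squares for +Gln in each derivative. GEM and TIAM1 move down in DLD1 and up in HCT116, TXNIP, KIT and ASCL2 move in DLD1 with HCT116 near background, and SNAI2 moves by a wide margin in HCT116 Mut alone.

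Some of the called differences were in genes absent from a line with glutamine. A gene was marked absent from a line when its mean log2 level on the 4 +Gln arrays lay below the 95th percentile of 358 olfactory receptor genes in that line, 2.18 in DLD1 (intensity 4.53) and 2.24 in HCT116 (intensity 4.71). Of 772 tested genes absent from HCT116 alone 123 were called (15.933%), of 491 absent from DLD1 alone 77 (15.682%), of 2054 absent from both 80, and of 12359 absent from neither 2693 (21.79%). Genes absent from 1 line made up 200 of the 2973 calls. Of the 508 called differences of at least 2-fold, 74 were in genes absent from HCT116 alone and 37 in genes absent from DLD1 alone. Such genes entered the test through the line that expresses them, so their shares are a description. In the 123 called genes absent from HCT116 alone, 82 fell and 37 rose in DLD1. In the 80 called genes absent from both lines, 8 fell and 28 rose in DLD1. Absence was read from the +Gln arrays that also enter the change. A gene absent from HCT116 alone was thus above background in DLD1 with glutamine by definition, and these splits are a description.

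Several genes absent from HCT116 fell steeply in DLD1. SLAMF6, a lymphocyte adhesion receptor, had 2.60 and 6.39 without glutamine, against 78.2 and 87.0 with it, in DLD1 Mut, and 5.88 and 5.87 without, against 76.8 and 82.5 with, in DLD1 WT, against 2.24 to 2.73 on the 8 HCT116 arrays. Without glutamine it was near background in both lines. Its difference was -4.04 (limma adjusted p = 4.54e-05). The receptor tyrosine kinase KIT had 108 and 99.8 without glutamine, against 603 and 672 with it, in DLD1 Mut, and 89.3 and 91.6 without, against 584 and 768 with, in DLD1 WT, against 2.87 to 5.54 in HCT116. KIT stayed far above background in DLD1 although it fell on every -Gln array (difference -2.88, limma adjusted p = 0.000227).
The chloride channel CFTR, a marker of intestinal crypt epithelium, had 58.8 and 47.1 without glutamine, against 250.5 and 318 with it, in DLD1 Mut, and 35.5 and 43.1 without, against 251 and 314 with, in DLD1 WT (difference -2.85). RASSF10, a RAS-association protein (-3.66), the secreted protein OLFML3 (-2.93), the efflux transporter SLC47A1 (-2.36), the segmentation clock repressor HES7 (-2.36) and the alarmin IL33 (-2.32) also fell in DLD1 and were absent from HCT116.
Rises in DLD1 of genes absent from HCT116 included SLC16A4, a monocarboxylate transporter family member, which had 176 and 205 without glutamine, against 27.8 and 28.4 with it, in DLD1 Mut, and 236 and 231 without, against 15.3 and 31.4 with, in DLD1 WT (difference 3.29). The chemerin receptor CMKLR2 (3.07), the RAS-association protein RASSF9 (2.58) and the epithelial envelope protein SCEL (2.12) rose in DLD1 likewise, and SCEL also rose in HCT116 (0.60).
The reverse case, absent from DLD1 and falling in HCT116, held the orphan receptor GPRC5B, the meiotic protein MNS1 and the tubulin TUBB4A. GPRC5B had 5.32 and 6.33 without glutamine, against 51.6 and 29.4 with it, in HCT116 Mut, and 16.9 and 11.7 without, against 39.5 and 59.2 with, in HCT116 WT, while DLD1 arrays stayed between 3.96 and 6.14. Their differences were positive, 2.51 for GPRC5B, 2.52 for MNS1 and 2.31 for TUBB4A, although it was HCT116 that changed.

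Among Wnt targets and intestinal stem cell genes more were called with a more negative change in DLD1 than with a more positive one, over both genotypes together. In the Wnt pathway beta-catenin enters the nucleus and activates genes through TCF and LEF factors, and in the intestine this maintains crypt stem cells. Of 26 tested genes 10 changed more negatively and 2 more positively in DLD1, against 8.93% and 10% of all tested genes. The other 14 were not called, and the median difference was -0.38. Among Mut cells 4 were more negative and 5 more positive (median -0.13), against 6.05% and 6.19% of all tested genes. Among WT cells 6 were more negative and 0 more positive (median -0.49), against 4.55% and 5.5%. In DLD1 17 fell and 1 rose, against 19.9% and 20.9% of all tested genes. In HCT116 5 fell and 2 rose, against 18.2% and 18.4%. ASCL2, the stem cell transcription factor, had 22.9 and 18.8 without glutamine, against 101.3 and 89.7 with it, in DLD1 Mut, and 23.8 and 17.04 without, against 99.1 and 70.5 with, in DLD1 WT, while all 8 HCT116 arrays lay between 4.48 and 6.44. Its difference was -2.33 ± 0.19 (limma adjusted p = 8e-05). The adhesion receptor CD44 fell by 1.77 in DLD1, where its arrays did not overlap, and its change in HCT116 was -0.16 and not called (difference -1.61 ± 0.16). This call was lost when the mean of its probe sets was used in place of the brightest one (-0.18, limma adjusted p = 0.43).
The stem cell receptor LGR5 (-1.76), TNFRSF19 (-1.90), the Wnt inhibitor NKD1 (-1.60) and the factor LEF1 were called as well, LGR5, TNFRSF19 and LEF1 being absent from HCT116. MYC fell by 0.41 in DLD1 and rose by 0.23 in HCT116 when averaged over genotypes (difference -0.64 ± 0.09). In HCT116 Mut it had 1577 and 1453 without glutamine, against 942.6 and 1042 with it. In HCT116 WT it had 891.2 and 884.8 without, against 989.9 and 975.2 with. AXIN2, the feedback inhibitor most often used as a readout of the pathway, fell in both lines, by 1.76 in DLD1 and 1.26 in HCT116, and its difference was not called (-0.50 ± 0.21, limma adjusted p = 0.13). BMP4, a ligand that limits stemness, and SOX4 were the genes that changed more positively in DLD1 (1.10 and 0.40), a count that was 1 without any of 8 of the arrays, and the calls of SOX4 and LEF1 were each lost without any of 12.
SP5, a repressor downstream of beta-catenin, is shown because it was the member whose promoter held ATCAAAG, the core of the TCF site, and its difference was called (-1.19 ± 0.27). The window is RefSeq GRCh38.p14, plus strand, chr2:170715087-170715386, with the motif on the opposite strand in capitals.
SP5: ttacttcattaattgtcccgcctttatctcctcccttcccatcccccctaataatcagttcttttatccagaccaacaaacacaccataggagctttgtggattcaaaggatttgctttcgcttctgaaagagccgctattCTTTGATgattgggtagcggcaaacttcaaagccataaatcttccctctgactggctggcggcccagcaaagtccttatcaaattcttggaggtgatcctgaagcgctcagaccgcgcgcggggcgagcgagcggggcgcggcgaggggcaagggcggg
ATCAAAG, searched on both strands, occurred in 721 of 27305 promoters (2.64%), in 177 of the 11735 of tested genes (1.51%) and in 1 of the 17 Wnt genes with a promoter sequence.

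Chaperones of the endoplasmic reticulum and lipid synthesis genes held more calls in the negative direction. Of 20 tested chaperones and related genes 11 changed more negatively and 1 more positively in DLD1, against 8.93% and 10% of all tested genes. The median change was -0.19 in DLD1 and 0.15 in HCT116. HSPA5, the master chaperone of that compartment, had 2270.0 and 2306 without glutamine, against 2183 and 2307 with it, in DLD1 Mut, and 2296 and 2313 without, against 2861 and 3309 with, in DLD1 WT. It had 4400.0 and 4336 without, against 2638 and 2744 with, in HCT116 Mut, and in HCT116 WT 3681 and 3854 without, against 2497 and 2624 with. HSPA5 thus rose on every HCT116 array and fell in DLD1 WT, while DLD1 Mut arrays overlapped (difference -0.82 ± 0.09, limma adjusted p = 0.000264). HYOU1 (-0.79), CRELD2 (-0.99) and the translocon subunit SEC61B (-0.65) went the same way. The exception was HERPUD1, of the degradation machinery, which rose by 1.22 in DLD1 and 0.65 in HCT116. The sensor ERN1 rose by 2.16 in DLD1 and 1.84 in HCT116, with a difference that was not called (0.33 ± 0.12).
Of 27 tested cholesterol and fatty acid synthesis genes 0 changed more positively in DLD1, against 10% of all tested genes (median difference -0.20). The number that changed more negatively in DLD1 was 10, against 8.93% of all tested genes. Without the second DLD1 Mut +Gln array the count was 6. The list fell in both lines: 22 members in DLD1 and 21 in HCT116, against 19.9% and 18.2% of all tested genes. SCD, the stearoyl-CoA desaturase, fell by 2.04 in DLD1 and 0.89 in HCT116 (difference -1.15 ± 0.10), SQLE, squalene epoxidase, by 2.06 in DLD1 and 1.32 in HCT116, and MSMO1, a sterol oxidase, by 1.49 in DLD1 and 0.85 in HCT116.

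DNA replication genes fell in both lines. All 49 tested members fell in HCT116, against 18.2% of all tested genes, and 42 fell in DLD1, against 19.9%. The difference was called more positive in DLD1 for 27 and more negative for 1, against 10% and 8.93%, with 21 not called. The median change was -0.64 in DLD1 and -0.99 in HCT116. Among Mut cells 4 were more positive and 3 more negative, against 6.19% and 6.05% of all tested genes. Among WT cells 34 were more positive and 1 more negative, against 5.5% and 4.55%, a median difference of 0.77. The 34 became 22 without the second HCT116 WT +Gln array. By derivative the median change was -0.84 in DLD1 Mut, -0.39 in DLD1 WT, -0.78 in HCT116 Mut and -1.25 in HCT116 WT. PRIM1, the catalytic primase subunit, had 192 and 182 without glutamine, against 230.1 and 265 with it, in DLD1 Mut, and 223 and 228 without, against 183 and 187 with, in DLD1 WT. It had 113 and 111 without, against 296 and 296 with, in HCT116 Mut, and in HCT116 WT 109 and 96.3 without, against 294 and 291 with. The fall was large in both HCT116 derivatives, small in DLD1 Mut, and replaced by a small rise in DLD1 WT (difference 1.40 ± 0.09, limma adjusted p = 2.42e-05). MCM5 (0.98 ± 0.09) and MCM2 (0.91), subunits of the replicative helicase, and RRM2 (0.74), a ribonucleotide reductase subunit, followed. For RRM2 the line difference was smaller in Mut than in WT, with a called Mut minus WT value of -1.12. LIG1, which seals nicks, was the member more negative in DLD1 (-0.31), and that call was lost in 14 of the fits that left out 1 array.

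The line difference was next taken within each PIK3CA genotype. In Mut alone 1919 genes (12.2%) differed between the lines, and in WT alone 1576 (10.1%). Of these 594 were called in the same direction in both genotypes, 31.0% of the Mut calls and 37.7% of the WT calls, and 49 in opposite directions. The test of the Mut line difference against the WT one called 334 genes (2.13%), 96 more positive (0.612%) and 238 more negative (1.52%) in Mut. Leaving out 1 array lowered the 96 by over 1.5 times for 14 of the 16 arrays, to between 33 and 62, and the 238 for 13 arrays, to between 99 and 152.
Mitotic genes were the clearest case. Of 33 tested, 15 changed more negatively and 0 more positively in DLD1 than in HCT116 among Mut cells, against 6.05% and 6.19% of all genes. Among WT cells 20 changed more positively and 0 more negatively, against 5.5% and 4.55%. The 15 became 9 without the first DLD1 Mut +Gln array or without either DLD1 Mut -Gln array. The median change was -0.31 in DLD1 Mut, -0.03 in DLD1 WT, 0.05 in HCT116 Mut and -0.77 in HCT116 WT.
KIF11, the kinesin that builds the bipolar spindle, had 808 and 803 without glutamine, against 771 and 732 with it, in DLD1 Mut, and 896 and 854 without, against 766 and 835 with, in DLD1 WT. It had 453 and 498 without glutamine, against 499 and 486 with it, in HCT116 Mut, and 234 and 248 without, against 518 and 483 with, in HCT116 WT. The change passed the test in HCT116 WT alone, where the level fell by 1.05, and the Mut minus WT difference was -1.03 ± 0.18 (limma adjusted p = 0.0186).
UBE2C, which tags mitotic cyclins for degradation, had 53.02 and 48.9 without glutamine, against 98.1 and 98.7 with it, in DLD1 Mut, and 88.0 and 86.2 without, against 79.7 and 82.8 with, in DLD1 WT. It had 194 and 195 without, against 125 and 131 with, in HCT116 Mut, and 86.6 and 82.3 without, against 93.8 and 103 with, in HCT116 WT. It fell in DLD1 Mut and rose in HCT116 Mut, and its change was not called in either WT derivative (Mut minus WT -1.88 ± 0.17, limma adjusted p = 0.00143).

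**Figure D4:**
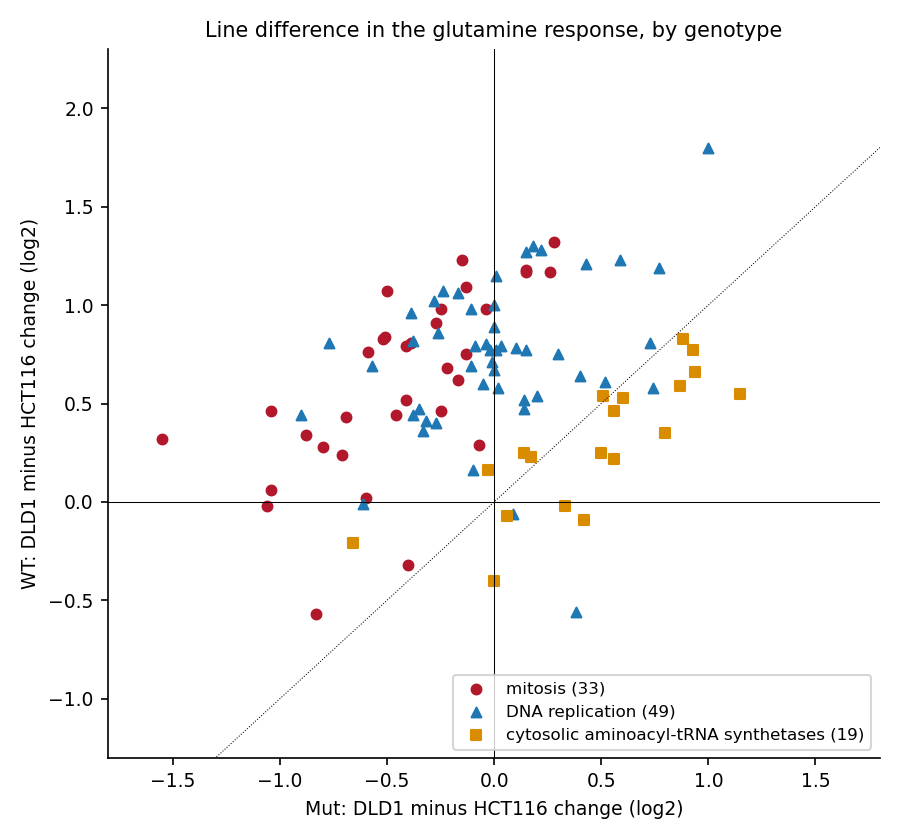
DLD1 minus HCT116 difference in the glutamine response among Mut cells (x axis) and among WT cells (y axis), in log2 units, for the tested members of 3 gene lists. Mitosis genes lie mostly above 0 on the y axis and below 0 on the x axis, with 20 called positive in WT and 15 called negative in Mut, while the replication genes lie mostly above 0 on the y axis alone and the synthetases above 0 on both.

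In several other genes with a called Mut minus WT difference the change was largest in a single derivative. SNAI2, a repressor of E-cadherin, had 504 and 465 without glutamine, against 13.8 and 12.8 with it, in HCT116 Mut. In HCT116 WT it had 13.0 and 12.6 without, against 10.8 and 8.86 with, in DLD1 Mut 18.1 and 9.11 without, against 5.90 and 7.47 with, and in DLD1 WT 12.3 and 11.8 without, against 8.54 and 9.87 with. The rise of 5.18 in HCT116 Mut gave a line difference of -2.12 over both genotypes and a Mut minus WT difference of -4.23 ± 0.51 (limma adjusted p = 0.00478).
The ligand WNT16 had 20.1 and 27.1 without glutamine, against 168 and 159.6 with it, in HCT116 Mut, and 375 and 339 without, against 476 and 392 with, in HCT116 WT, where its change was not called. All 8 DLD1 arrays lay between 5.23 and 18.3, and the Mut minus WT difference was 3.59 ± 0.68. BMP4 fell in HCT116 Mut to 319 and 357, against 1727 and 1712 with glutamine, and the change in HCT116 WT was not called (Mut minus WT 2.48 ± 0.18, limma adjusted p = 0.000587).
In DLD1 Mut the serine protease TMPRSS11F rose to 19.2 and 19.4, against 2.29 and 2.51 with glutamine, and lay between 1.98 and 3.94 on the other 12 arrays (Mut minus WT 3.07). The corepressor NRIP1 rose in DLD1 Mut to 19.1 and 22.3, against 3.16 and 4.02 with glutamine, and less in DLD1 WT, to 170.4 and 161, against 114 and 138. The lipoprotein receptor VLDLR, which ATF4 also induces, passed the test in DLD1 WT alone, where it rose by 2.51 (Mut minus WT -2.46). TFPI, an inhibitor of coagulation, fell in DLD1 Mut (-0.53) and rose in DLD1 WT (1.00), HCT116 Mut (2.60) and HCT116 WT (1.08).
Of the 334 genes the change was largest in HCT116 Mut for 130, in HCT116 WT for 112, in DLD1 Mut for 58 and in DLD1 WT for 34. Every gene has a derivative with its largest change, and the same split over all tested genes was not made. The counts are therefore a description and do not set these genes apart from the others.

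The other stress and growth lists described here held calls in both directions. Their counts are to be read against 10% of all tested genes more positive and 8.93% more negative in DLD1. Of 24 tested NRF2 targets, which defend against oxidants, 7 were more positive (29.2%) and 5 more negative (20.8%) in DLD1. Among Mut cells 9 were more positive and 1 more negative, against 6.19% and 6.05% of all tested genes. Among WT cells the counts were 3 and 4, against 5.5% and 4.55%. Over both genotypes the positive ones included thioredoxin reductase TXNRD1 (0.79) and the quinone reductase NQO1 (0.68), and the negative ones sulfiredoxin SRXN1 (-0.55) and peroxiredoxin PRDX1 (-0.51).
YAP-TEAD targets were more positive in DLD1 for 8 of 24 and more negative for 1. Among Mut cells 4 were more positive and 1 more negative (median 0.02), and among WT cells 9 and 0 (median 0.56). The 8 included the ankyrin repeat protein ANKRD1 (1.92), which was absent from HCT116 with glutamine and lay between 2.69 and 9.15 on its 8 arrays. Tissue factor F3, also among them, rose by 0.90 in DLD1 and fell by 0.37 in HCT116 when averaged over genotypes. In HCT116 Mut F3 had 208.3 and 245.5 without glutamine, against 370.2 and 406.9 with it. In HCT116 WT it had 301 and 311.6 without, against 292.6 and 299.6 with. NT5E, the ecto-enzyme that makes adenosine, was the exception: it rose by 0.53 in DLD1 and 1.61 in HCT116. FOXO targets and growth factor receptors were more positive in DLD1 for 9 of 25, a count of 5 without the second DLD1 Mut -Gln array, and more negative for 1. Among them were IRS1, the insulin receptor substrate (0.92), CITED2, a CBP-binding coactivator (0.84), and GADD45B, a stress-response protein (1.25).
Of 21 tested epithelial-mesenchymal switch genes 3 were more positive (14.3%) and 6 more negative (28.6%) in DLD1. The splicing regulator ESRP1, among the 3, rose by 1.94 in DLD1 and 0.62 in HCT116, while E-cadherin, CDH1, was among the 6 (-0.55). In colon identity genes 1 of 18 was more positive and 2 more negative, the homeobox factor CDX2 (-0.87) and VIL1 (-0.83). Of the lysosome and autophagy genes 1 of 32 was more positive in DLD1, the folliculin partner FNIP1 (0.75), and 5 were more negative, among them the transcription factor TFE3 (-0.82) and the phosphoinositide-binding WIPI1 (-1.06).
The lists with the smallest called shares were colon epithelial identity (16.7%), lysosome and autophagy (18.8%) and ribosome biogenesis (23.3%), near the 19% of all tested genes. Several list counts of 5 or fewer moved by over 1.5 times when 1 array was left out, and they describe single genes rather than lists.

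**Figure D5:**
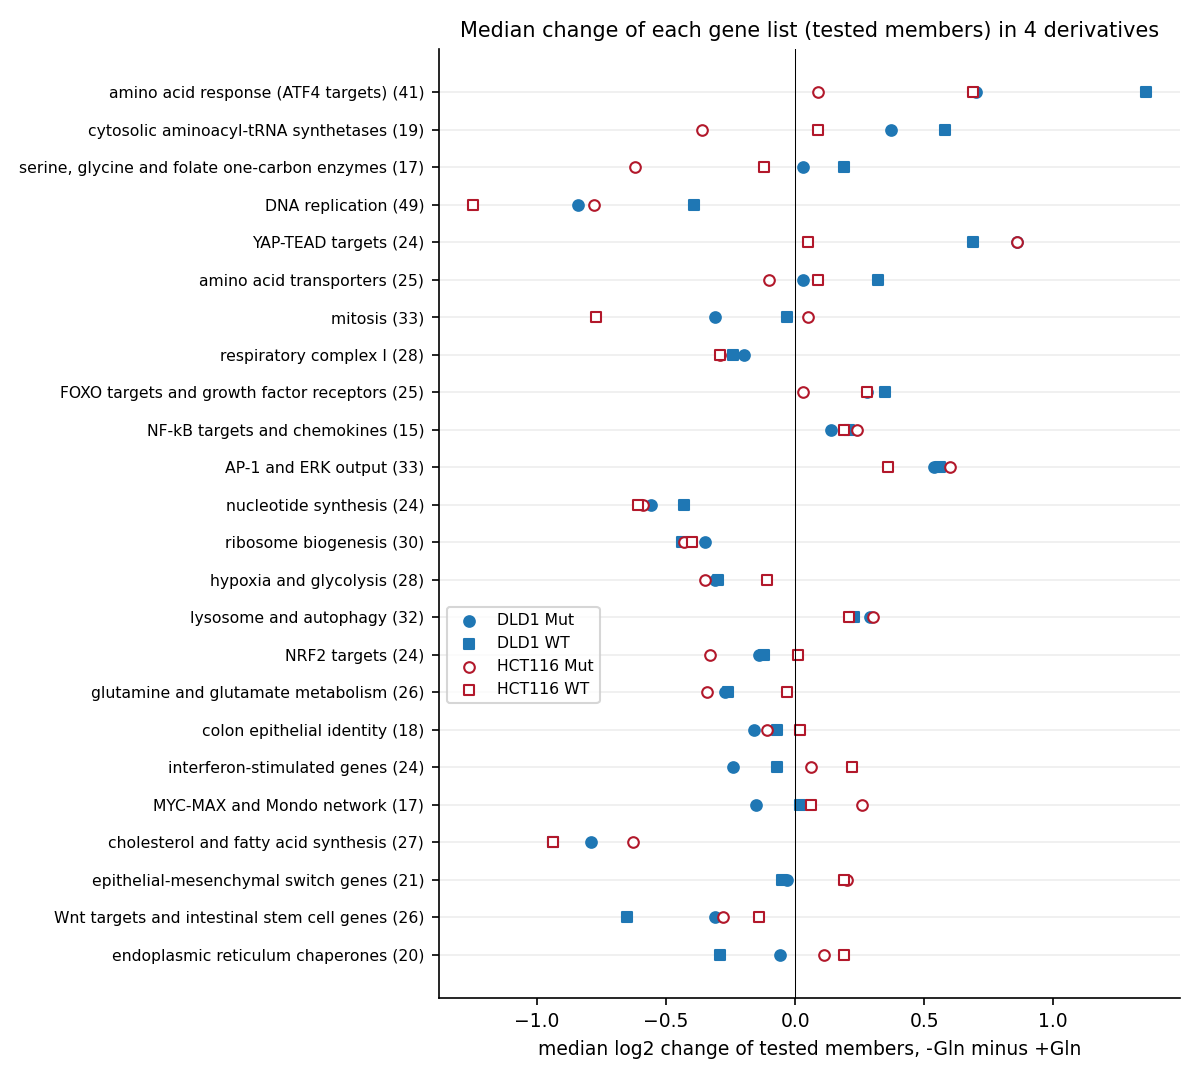
Median change without glutamine (log2, x axis) of the tested members of each of 24 gene lists, with the number tested in brackets, for DLD1 Mut, DLD1 WT, HCT116 Mut and HCT116 WT. The lists are ordered by the median line difference; the amino acid response runs from 0.09 in HCT116 Mut to 1.36 in DLD1 WT, and mitosis from -0.77 in HCT116 WT to 0.05 in HCT116 Mut.

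Many genes changed in the same direction in both lines with a limited line difference. For 1812 genes called in the same direction in both lines, 900 that rose and 912 that fell, the 95% interval of the line difference lay within 0.5 log2 units of 0 on either side. The rule did not leave out genes whose small line difference was itself called. BHLHE41, a repressor of the circadian clock, had 88.1 and 112 without glutamine, against 10.5 and 11.5 with it, in DLD1 Mut, and 38.8 and 37.1 without, against 7.17 and 8.20 with, in DLD1 WT. It had 85.2 and 81.7 without, against 9.23 and 7.30 with, in HCT116 Mut, and 50.8 and 46.4 without, against 10.4 and 12.4 with, in HCT116 WT. The rises were 2.74 in DLD1 and 2.72 in HCT116, with a difference of 0.02 ± 0.15. The phospholipase ABHD4 rose by 1.72 in DLD1 and 1.67 in HCT116, and the thiolase ACAT2 of sterol synthesis fell by 1.68 in DLD1 and 1.61 in HCT116.
An average over genotypes can hide opposed differences. JUN, the AP-1 subunit, rose by 1.95 in DLD1 and 1.98 in HCT116, yet its line difference was -1.18 ± 0.15 in Mut and 1.10 ± 0.15 in WT, and the Mut minus WT difference was -2.27 ± 0.21 (limma adjusted p = 0.00143). In HCT116 Mut it had 1177 and 1206 without glutamine, against 115 and 127 with it, and in HCT116 WT 192 and 202 without, against 132 and 117 with.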

How the data were processed

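Total RNA was labelled by the Affymetrix whole transcript protocol, per the labels. The authors' deposited table holds 1 intensity per probe set and array on a linear scale. The normalization behind it is not given in the sources used here, although the 16 arrays have near-equal distributions. Of 53617 probe sets 23871 had a single gene symbol, and the brightest stood for each of 22395 genes. The deposited intensities were turned into log2 values with no pseudocount, and genes in the lowest 30% of mean level were left out (15676 tested, lowest mean 1.65).

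A mean for each of the 8 groups was fitted with limma 3.58.1 (R 4.3.3, lmFit and eBayes), with 8 residual and 2.49 prior degrees of freedom. Errors are standard errors of that fit unless stated, and p-values were adjusted by Benjamini-Hochberg over all tested genes. Alternatives changed the filter, normalization, probe set choice, pseudocount, variance model, background threshold, fold minimum and replicate block, or left out each array in turn.

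Members and gene lists were chosen with earlier results of these data known. Named genes were the largest differences in each class (above background in both lines, absent from 1, opposite, genotype-dependent, same response), the called list members with the smallest adjusted p, and 11 genes set by name. Other list members were named after their values were seen. 1 gene list is not reported here.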

Additional observations from a re-analysis of the deposited data

Results flagged for a closer look

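The effect of glutamine withdrawal differed between DLD1 and HCT116 for 2973 of 15676 tested genes, by limma's test of the difference itself. That line difference in turn differed between Mut and WT cells for 334 genes, by the test of Mut minus WT.

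Among the genes named in the text, the Mut minus WT value of the line difference passed that test on the positive side for WNT16 (3.59), TMPRSS11F (3.07), BMP4 (2.48), NRIP1 (2.37), SOX4 (1.45) and NQO1 (0.82). It passed on the negative side for SNAI2 (-4.23), TFPI (-3.06), VLDLR (-2.46), JUN (-2.27), UBE2C (-1.88), NT5E (-1.36), RRM2 (-1.12) and KIF11 (-1.03).

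Probe sets with no symbol or with several symbols were outside the comparisons. Of 13229 tested in the same way, 326 differed between the lines in their response (2.46%), 147 more positive and 179 more negative in DLD1.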

How the results depend on the processing

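Of 123 genes named here with a called line difference, 114 kept the call under every alternative other than a 2-fold minimum, and 0 changed sign. The exceptions were CD44 and SRXN1, lost with the mean of probe sets, and ATF3, ATF4, CXCL8, LEF1, LIG1, PKM and SOX4, each lost without any of 10 to 14 arrays. Called line differences, more positive and more negative in DLD1, were 1309 and 1198 with no filter, 1940 and 1713 with a pseudocount of 8 and, by a choice made after seeing the data, 1321 and 1069 among genes above the 99th percentile threshold in both lines. With a 2-fold minimum they were 204 and 304, with 449 and 474 in DLD1, 357 and 291 in HCT116, 280 and 423 among Mut cells and 268 and 298 among WT cells. That minimum left 1 gene in opposite directions, 15 in the same direction, 224 in DLD1 only and 142 in HCT116 only, and 168 with the same and 5 with opposite directions in both genotypes. Of the list counts in the direction of most calls it left 12 of 28 ATF4 targets, 0 of 10 synthetases, 6 of 10 Wnt genes, 1 of 27 replication genes, 0 of 11 chaperones and 1 of 10 lipid genes. Mut minus WT calls, more positive and more negative, were 55 and 152 with no filter, 209 and 362 above the median level, 259 and 420 with the pseudocount, and 332 and 462 with a trended robust variance. Genes called in opposite directions in the genotypes numbered 24, 77, 79 and 89 under these, and in the same direction 905 with the pseudocount and 903 with the robust variance. With the 99th percentile threshold 332 called genes were absent from 1 line.

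Replicate numbers did not pair the samples: deviations of same-numbered arrays correlated at -0.04 to 0.03 over 28 pairs of groups. With the replicate block the line difference was called for 1486 and 1358 genes, and within each line for 1375 and 1293. Mut minus WT calls were 77 and 186 with the block and 41 and 106 with the block within each line, which left 26 genes in opposite directions in the genotypes.

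Leaving out 1 array gave 1233 to 1462 and 1135 to 1299 line differences, 2932 to 3304 and 2759 to 3133 changes in DLD1, and 2498 to 2873 and 2536 to 2844 in HCT116, up and down. It gave 591 to 927 and 578 to 907 line differences among Mut cells, 499 to 837 and 383 to 706 among WT cells, and 33 to 68 and 99 to 184 Mut minus WT calls. Opposite, same-direction, DLD1-only and HCT116-only genes ran over 203 to 237, 535 to 612, 927 to 1103 and 642 to 706. Both genotypes had the same direction for 362 to 460 and opposite ones for 17 to 38. The lone array of a group was assumed to vary like the others. Low signal limits the genes near background, and the causes of these shifts were not tested.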

Other observations

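The lists below held calls in both directions, to be read against 10% of all tested genes more positive and 8.93% more negative in DLD1. Of 28 tested hypoxia and glycolysis genes 6 were more positive (21.4%) and 3 more negative (10.7%). The positive ones included the vasoactive peptide ADM (1.41), the angiogenic factor VEGFA (0.98) and hexokinase HK2 (0.66), and the negative ones were hexokinase HK1 (-0.54), phosphofructokinase PFKP (-0.53) and pyruvate kinase PKM (-0.28, a call lost without any of 12 arrays). Of 24 interferon-stimulated genes 2 were more positive (8.3%) and 4 more negative (16.7%), shares near those of all genes, with the antiviral enzyme OAS1 at -1.81 and the factor IRF1 at 0.59. Of 33 AP-1 and ERK output genes 9 were more positive (27.3%), among them the ERK inhibitor SPRED2 (0.92), and 3 more negative (9.1%), among them IER3 (-1.19). The genotypes differed in these counts. Among Mut cells 3 were more positive and 5 more negative, against 6.19% and 6.05% of all tested genes. Among WT cells 11 were more positive and 1 more negative, against 5.5% and 4.55%.

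Of 15 NF-kB targets and chemokines 2 were more positive, the factors NFKB2 (0.75) and RELB (0.75), and 3 more negative. Of the negative ones CXCL5 (-1.20) fell in DLD1 and lay between 5.01 and 7.601 on the HCT116 arrays, CXCL3 was absent from HCT116 with glutamine and CXCL8 from both lines, its call lost without any of 10 arrays. Of 24 nucleotide synthesis genes 4 were more positive, among them the pyrimidine enzyme DHODH (0.69), and 2 more negative, among them uridine phosphorylase UPP1 (-1.40), with 1 more negative without any of 9 arrays. Of 17 genes of the MYC-MAX and Mondo network 3 were more positive and 5 more negative, among them MXD1 (-0.69), with 3 more negative without any of 7 arrays. Among Mut cells 1 gene of that network was more positive and 4 more negative, against 6.19% and 6.05% of all tested genes. Among WT cells 4 were more positive and 0 more negative, against 5.5% and 4.55%. Of 28 respiratory complex I subunits 4 were more positive (14.3%) and 3 more negative (10.7%), among them NDUFA7 (0.60) and NDUFA1 (-0.60).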
